A study of Mus musculus with 4 samples.

Results

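The collagen gene family was examined here in lung tumours of CD109+/+ and CD109-/- mice. Its 35 members are collagen genes by symbol, and were chosen with earlier results of these data known. They are 35 of 23787 genes named on the arrays, and 30 of them had enough signal to be tested, among 16445 genes tested in all. A further 9 collagen genes, 4 of them tested, are outside the 35. The members were ordered by textbook class into 9 fibrillar, 9 basement membrane, 4 beaded filament, 4 transmembrane, 6 fibril-associated and 3 short-chain network collagens.

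The study asked which gene sets and pathways go with loss of CD109, a glycosylphosphatidylinositol-anchored surface protein known as a TGF-beta co-receptor. Total RNA from lung tumours of 2 CD109+/+ and 2 CD109-/- samples was hybridised to 1-colour Agilent arrays, 1 array for each sample. All 4 samples are labelled as from KP and C57BL/6J mice. These mice had received adenoviral Cre recombinase through the trachea 88 to 92 days before RNA extraction. The labels used here do not spell out the alleles behind the name KP, the kind of Cd109 mutation, the promoter driving Cre, the age of the mice or whether tumours were pooled. CD109+/+ replicates 1 and 2 and CD109-/- replicate 2 were female, and CD109-/- replicate 1 was male. The CD109-/- replicates differ in sex, so they come from different animals. For the CD109+/+ replicates the labels do not say that each number is a separate animal. The p-values measure the spread between these samples, which may be technical within CD109+/+. With 2 samples against 2, an exact permutation test of a single gene cannot go below 0.333, so p-values come from limma, which shares information on the spread among genes.

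Collagens are the main structural proteins of the extracellular matrix. Each molecule is a rod of chains wound around each other, built either from copies of a single chain or from different chains made by different genes. Fibrillar collagens assemble into the cross-striated fibrils that give lung and tumour stroma their stiffness, while type IV collagens form the sheet beneath epithelium and around vessels. Chains are hydroxylated and folded in the endoplasmic reticulum, secreted, trimmed at their ends, crosslinked by lysyl oxidases, bound by integrins and discoidin domain receptors, and cleaved by metalloproteinases. In lung tumours fibroblasts are a main source of fibrillar chains, and TGF-beta is a well-known inducer of them.

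The 75th percentile of the processed signal lay between 557 and 688 on the 4 arrays. The share of spots well above background was 64.3% to 67.0%, and saturation was marked on 0 spots. Values below are log2 signals relative to that percentile of the same array, so 0 is the percentile and each unit is a doubling of signal. The 4 values given for a gene stand in the order CD109+/+ replicate 1, CD109+/+ replicate 2, CD109-/- replicate 1 and CD109-/- replicate 2. Differences are CD109-/- minus CD109+/+ with the standard error (SE) of the limma fit, n = 2 for each genotype unless stated. Signals of different genes come from different probes and are not compared in height. Cd109 itself gave -3.70, -4.66, -7.98 and -7.87, well above background on both CD109+/+ arrays and on neither CD109-/- array. The CD109-/- signal was at least 2.92-fold lower, in the direction of the labels. The sources used here do not say where this probe lies relative to the Cd109 mutation.

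At a Benjamini-Hochberg adjusted p under 0.05, limma called 0 collagen genes, beside 0% of all genes tested (0 of 16445). The lowest adjusted p was 0.504 among the 30 tested collagens and 0.266 among all genes. At an unadjusted p under 0.05, 4 of the 30 collagens were called (13.3%), against 7.41% of all genes (1219 of 16445). Those higher in CD109-/- tumours were Col3a1, Col13a1 and Col8a2, 3 members, where 5.00% of all genes were higher at that threshold. Col8a2 entered with 1 measured CD109-/- array and passed the signal filter through the CD109-/- genotype. Among genes well above background on all 4 arrays, 2 members were higher and 2 lower (Col15a1 and Col18a1). With the settings reported, Col15a1 was the 1 member lower, where 2.41% of all genes were lower. That 7.41% moved to 3.36% when CD109+/+ replicate 1 was left out and to 11.7% when CD109-/- replicate 2 was.

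More collagens had higher than lower values in CD109-/- tumours. The value was higher in CD109-/- tumours for 19 of the 30 tested members (63.3%) and lower for 11, while 50.3% of all genes had a higher value. The median difference of the 30 members was 0.18, beside 0.00 for all genes. A member is called non-overlapping where all measured arrays of a genotype lie above all those of the other. This held for 11 members with higher CD109-/- values (36.7%) and for 4 with lower ones (13.3%). Of the 11, Col8a2 had 1 CD109-/- array, and 10 had both. The same held for 20.3% of all genes on the higher side and 18.3% on the lower side. Either way it was 15 of the 30 members, beside 38.6% of all genes. A difference of at least 1, a doubling or halving of signal, was measured for 6 members (20.0%), against 6.51% of all genes. These were Col3a1, Col13a1, Col8a2, Col27a1 and Col14a1 on the higher side and Col15a1 on the lower. The count depends on how background is handled. Normexp background correction adds a constant and compresses dim signals, and with it only Col3a1 stayed at 1 or more (1.25). Col13a1 then gave 0.61, Col8a2 0.65, Col27a1 0.80, Col14a1 0.45 and Col15a1 -0.77. The share of all genes was not counted with normexp. The SE of the members ran from 0.22 to 0.93 with a median of 0.35, so small differences could not be told from 0 at this number of arrays.

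**Figure D1:**
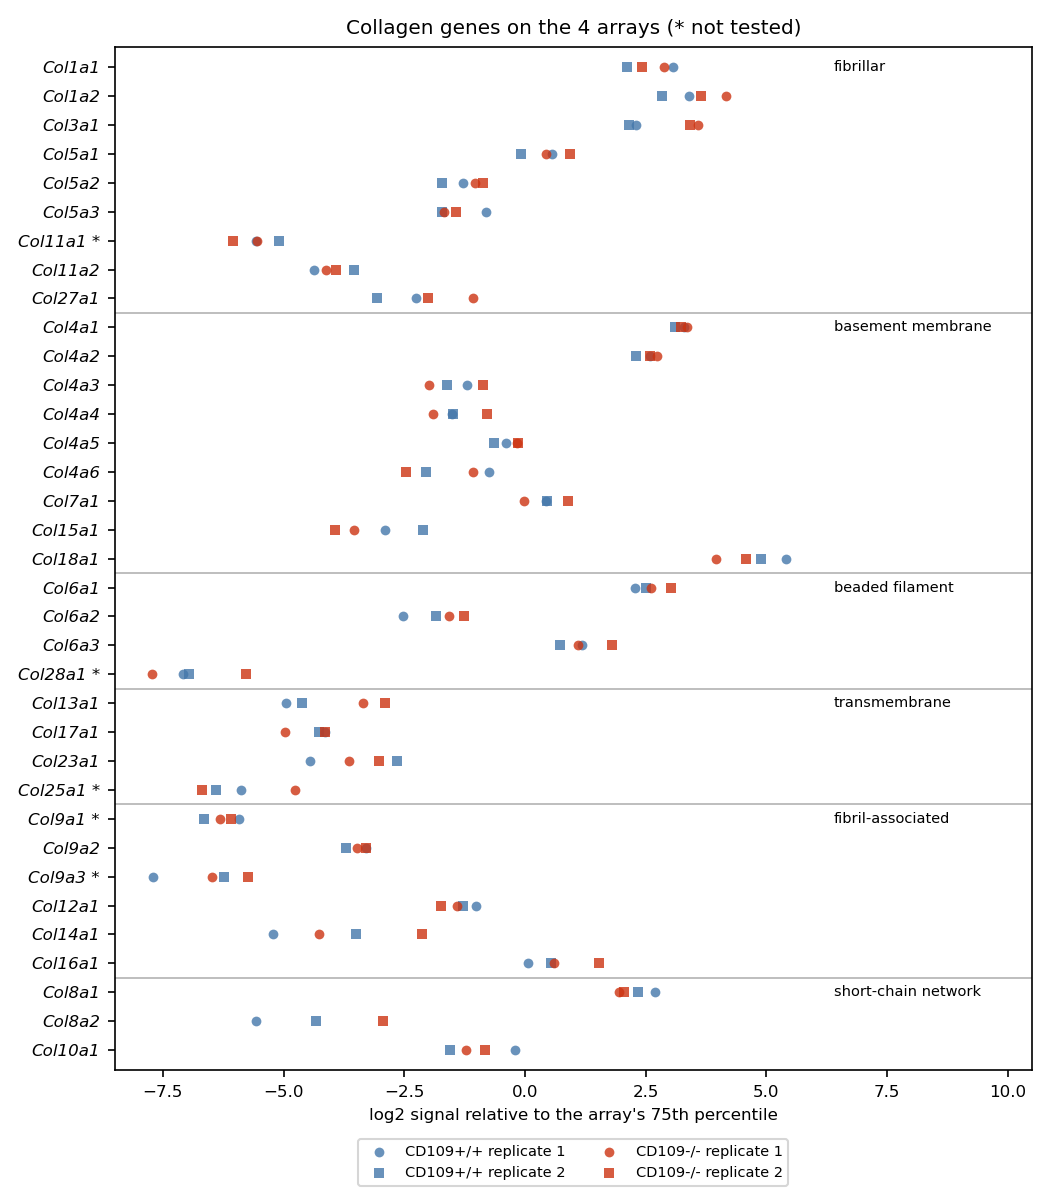
Log2 signal of each collagen gene on the 4 arrays, relative to the array's 75th percentile, by class; blue marks CD109+/+ and red CD109-/- arrays, circles replicate 1 and squares replicate 2, and a star marks the 5 members not tested. In the Col3a1 row the red points (3.58 and 3.41) lie to the right of the blue ones (2.30 and 2.15), and in the Col15a1 row they lie to the left.

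Among other cells that a tumour sample can hold, several moved with the genotype, and their values stand beside every collagen below. All 11 fibroblast markers (Pdgfra, Pdgfrb, Dcn, Lum, Thy1, Tcf21, Dpt, Fbln1, Pi16, Cygb and Inmt) had higher CD109-/- values, with a median difference of 1.53. An unadjusted limma p under 0.05 was reached by 7 of them. Of these 7, Tcf21 and Dpt were well above background on 1 CD109+/+ array and passed the signal filter through the CD109-/- arrays. Over all genes, 5.00% were higher and 2.41% lower at that threshold, and 20.3% were higher and 18.3% lower without overlap. These shares are the background for every marker list here. The summed signal of the 11 markers, in multiples of the 75th percentile, was 15.1 and 19.6 on the CD109+/+ arrays. On the CD109-/- arrays it was 24.7 and 32.3. Pdgfrb stood at 0.94, 0.62, 0.34 and 1.24, so that defining marker overlapped between genotypes with a difference of 0.01. The 7 smooth muscle and pericyte markers summed to 18.4, 14.9, 24.1 and 17.7, with 5 higher and 0 past that threshold. The 6 endothelial markers summed to 8.47, 7.12, 8.09 and 11.3, all of them higher and 1 (Tek) past the threshold. Marker genes named beside a count of calls were named after their values were seen. Macrophage markers, 6 of 6 higher and 3 past the threshold (Adgre1, Mrc1 and Cd163), summed to 24.5, 19.3, 35.3 and 30.4. Cd163 was well above background on neither CD109+/+ array and passed the signal filter through the CD109-/- arrays. Its signal there was at least 3.39-fold higher. T cell markers, 3 of 3 higher and 2 past the threshold (Cd3d and Cd3g), summed to 0.883, 0.839, 1.46 and 1.37. Epithelial markers summed to 499, 269, 333 and 227, and alveolar type 2 markers to 982, 985, 994 and 910. Alveolar type 1 markers, 1 of them past the threshold (Cav1), summed to 332, 252, 238 and 330, and basal cell markers to 6.39, 8.08, 6.01 and 7.17. Of the mesothelial markers 4 were tested, 3 of them higher without overlap, with a median of 2.00 and 2 past the threshold. These were Wt1, well above background on neither CD109+/+ array and at least 3.95-fold higher, and Upk3b, with a difference of 2.21, which had signal above background in 1 CD109+/+ sample. The third without overlap, Lrrn4, was well above background on neither CD109+/+ array. All 3 passed the signal filter through the CD109-/- arrays. The mesothelial sum went with the replicate number instead, at 66.3, 10.3, 44.4 and 8.06, and came almost wholly from Msln, at 6.05, 3.35, 5.46 and 2.98. Schwann cell markers summed to 0.352, 0.525, 0.251 and 0.399. Each sum is led by the brightest probes of its list, such as Krt18 and Krt8 among the epithelial markers. The part of any of these cells in the collagen values was not tested, and in bulk RNA more cells of a type and more RNA per cell cannot be told apart.

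The fibrillar collagens make up the fibrils of the stroma, and 8 of their 9 genes were tested. Col3a1 was higher in CD109-/- tumours by 1.27 on the log2 scale, and the other fibril chains varied around lower differences. Of the 8, 6 had higher values, 4 of them without overlap, and 2 lower values, with a median difference of 0.50. At an unadjusted p under 0.05, 1 of the 8 was called. Of all genes, 20.3% were higher and 18.3% lower without overlap, and 7.41% were called. These shares are the background of the other collagen classes too.

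Col3a1 encodes the only chain of type III collagen, a fibril former of compliant tissues such as lung and vessel wall. Its signal was 2.30, 2.15, 3.58 and 3.41. Both CD109-/- arrays lay above both CD109+/+ arrays, and the SD within a genotype was 0.11 and 0.12. The difference was 1.27 ± 0.22 (SE), a 2.41-fold higher signal with an unadjusted p of 0.0029 and an adjusted p of 0.504 (limma). Under 16 other processing choices it ran from 1.18 to 1.35, with an unadjusted p under 0.05 each time. The adjusted p stayed at 0.285 or more over those choices. Of them, the other filters and probe rules, the trend and the block could not change the difference. Sex as a covariate was the same fit as leaving out CD109-/- replicate 1.

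Type I collagen, the most abundant fibril former of the body, joins chains of Col1a1 with a chain of Col1a2. Col1a2 gave 3.39, 2.84, 4.17 and 3.65. Both CD109-/- arrays were above both CD109+/+ arrays, with a difference of 0.79 ± 0.32 and an unadjusted p of 0.0625 (limma, adjusted p = 0.700). Col1a1 gave 3.06, 2.12, 2.87 and 2.43 on its brightest probe. Here the genotypes overlapped, since CD109+/+ replicate 1 was the highest array and CD109+/+ replicate 2 the lowest, and the difference was 0.06 ± 0.40. The other Col1a1 probes gave 2.24, 1.49, 2.68 and 2.00 on the first of them, a difference of 0.48, and 2.11, 1.36, 2.49 and 1.77 on the next, a difference of 0.39. Averaged over its 3 probes, Col1a1 differed by 0.31. On its brightest probe the sign turned when CD109+/+ replicate 2 (-0.41) or CD109-/- replicate 1 (-0.16) was left out.

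The partner chains of type I collagen were therefore set against each other within each array. Relative to the CD109+/+ mean, Col1a2 minus Col1a1 was -0.20, 0.20, 0.77 and 0.69. That balance was 0.73 higher in CD109-/- tumours, without overlap, on the brightest Col1a1 probe. Col3a1 minus Col1a2 was -0.20, 0.20, 0.30 and 0.65, a smaller gap of 0.48 that also did not overlap. Such a ratio shows unequal signal change between probes and does not say which of them stayed level. It was given no p-value.

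The annotated upstream sequences of Col3a1 and Col1a2 are printed as examples of fibrillar genes with higher, non-overlapping values, of which Col3a1 had the largest difference. Col27a1 (1.12) and Col5a2 (0.56) were also higher without overlap, and their windows are not printed. Both come from RefSeq on GRCm38.p6, 250 bases that end just before the annotated start, on the gene's own strand. Capitals mark matches, on either strand, to 4 short motifs. The TATA box, which places the start of transcription, was searched as TATAAA. The CCAAT box, bound by the factor NF-Y, was searched by the letters of its name. The GC box of the SP family of factors was searched as GGGCGG. The SMAD element was searched as CAGAC, the letters to which the transcription factors downstream of TGF-beta can bind. Matches did not overlap in the sequences printed. The Col3a1 window is chr1:45311288-45311537, plus strand, and the Col1a2 window is chr6:4505368-4505617, plus strand.
Col3a1: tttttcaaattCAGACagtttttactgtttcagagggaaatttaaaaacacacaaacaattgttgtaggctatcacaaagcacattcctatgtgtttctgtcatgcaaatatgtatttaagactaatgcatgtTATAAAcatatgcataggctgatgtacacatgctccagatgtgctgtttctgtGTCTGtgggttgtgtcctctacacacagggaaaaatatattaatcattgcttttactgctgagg
Col1a2: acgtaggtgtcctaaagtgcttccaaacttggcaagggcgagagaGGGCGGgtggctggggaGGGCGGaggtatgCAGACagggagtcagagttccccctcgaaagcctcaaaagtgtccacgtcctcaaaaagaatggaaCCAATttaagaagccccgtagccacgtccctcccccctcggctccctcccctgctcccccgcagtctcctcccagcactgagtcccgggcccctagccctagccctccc
The Col3a1 window held 1 TATA box match, 2 SMAD element matches and 0 matches to the other motifs, at a G+C content of 35.2%. The Col1a2 window held 1 CCAAT box, 2 GC boxes, 1 SMAD element and 0 TATA boxes, at 62.0% G+C. Over all 32851 RefSeq windows of this length, 12.4% held the TATA box, 33.8% the CCAAT box, 32.7% the GC box and 42.2% the SMAD element. Over the 32 windows of the 29 collagen members in that table the shares were 15.6%, 37.5%, 59.4% and 43.8%. A match describes letters only, and the arrays did not measure binding.

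Type V collagen is built into type I fibrils and limits their width. Its Col5a2 chain gave -1.28, -1.73, -1.03 and -0.87, with both CD109-/- arrays above both CD109+/+ arrays and a difference of 0.56 ± 0.26 (limma, unadjusted p = 0.0888, adjusted p = 0.720). Col5a1 gave 0.56, -0.08, 0.44 and 0.93, where CD109-/- replicate 1 lay between the CD109+/+ arrays, and differed by 0.45 ± 0.34. The Col5a3 chain gave -0.80, -1.73, -1.67 and -1.44, with overlap and a difference of -0.29 ± 0.38. Within each array, Col5a3 minus Col5a1 was 0.14, -0.14, -0.62 and -0.88 relative to the CD109+/+ mean. That balance was lower by 0.75 in CD109-/- tumours, without overlap. Without CD109+/+ replicate 1, however, the Col5a3 difference itself turned to 0.17.

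Col5a2 and Col3a1 are immediate neighbours on chromosome 1, with 0 annotated genes between them. Their values were higher in both CD109-/- arrays for each of them. Within each array, Col3a1 minus Col5a2 was -0.15, 0.15, 0.88 and 0.55, so the Col3a1 probe differed by 0.71 more than the Col5a2 probe.

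Col27a1 encodes a chain of thin fibrils best known from cartilage. Its signal was -2.26, -3.06, -1.07 and -2.01. Both CD109-/- arrays lay above both CD109+/+ arrays, although CD109-/- replicate 2 exceeded CD109+/+ replicate 1 only narrowly. The difference was 1.12 ± 0.46 (limma, unadjusted p = 0.0629, adjusted p = 0.700), and it ran from 0.65 without CD109-/- replicate 1 to 1.59 without CD109-/- replicate 2. Col11a2, a chain of the type XI collagen inside cartilage fibrils, gave -4.37, -3.55, -4.12 and -3.92, with a difference of -0.06 ± 0.35 that changed sign between choices. Its partner Col11a1 was not tested, being well above background on 1 of the 4 arrays, at -5.58, -5.10, -5.56 and -6.05. Most cartilage markers gave little signal beside these genes, as 4 of 7 (Matn1, Matn3, Cnmd and Snorc) were well above background on no array, and the 7 summed to 0.229, 0.179, 1.59 and 0.130. Of the 2 cartilage markers tested, Hapln1 was lower at an unadjusted p under 0.05, by -0.73. The sum on CD109-/- replicate 1 came mainly from Acan, which gave -4.99, -8.16, 0.55 and -7.98.

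**Figure D2:**
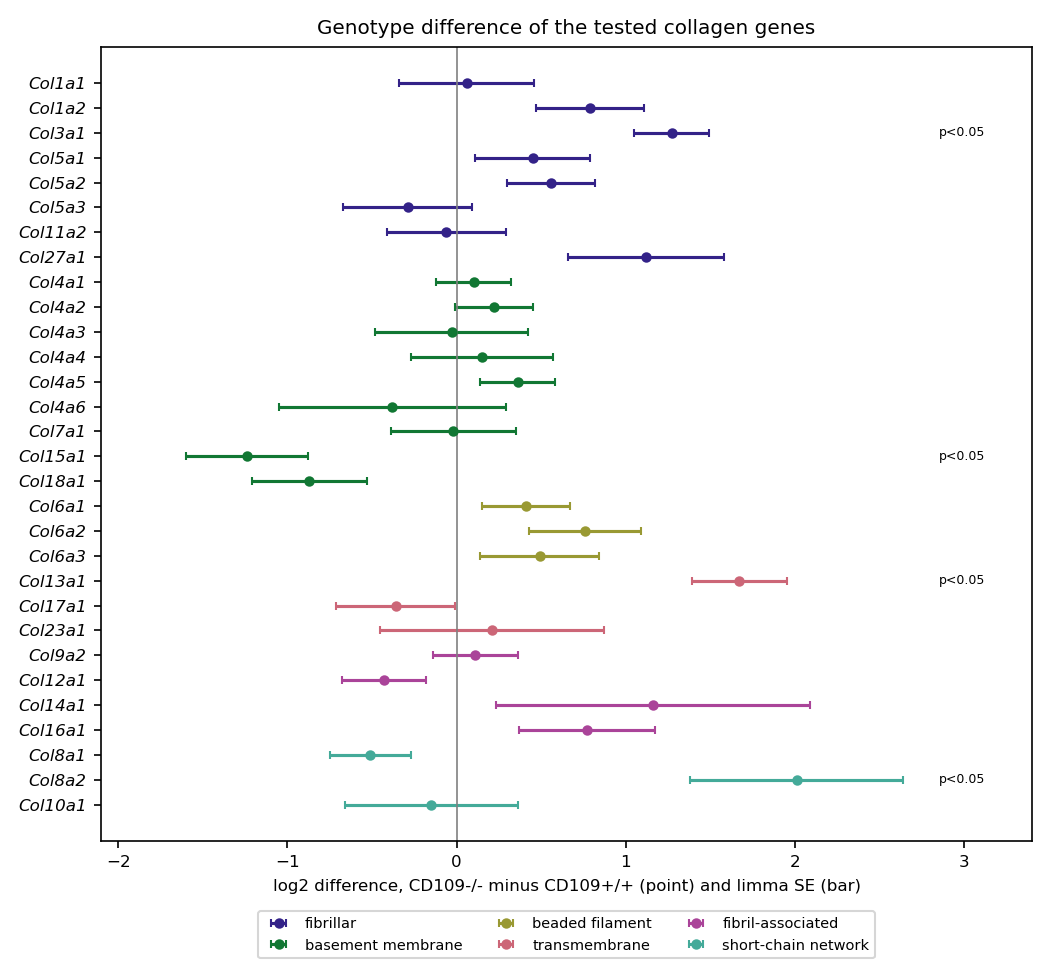
Log2 difference, CD109-/- minus CD109+/+, of each of the 30 tested collagen genes (points) with the SE of the limma fit (bars), coloured by class, and a mark at the 4 with an unadjusted p under 0.05. Col3a1 (1.27), Col13a1 (1.67) and Col8a2 (2.01) lie farthest to the right and Col15a1 (-1.24) farthest to the left.

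The basement membrane collagens form sheets under epithelium and around vessels, and all 9 were tested. As a class they did not share a direction. Values were higher for 4 and lower for 5, with a median of -0.02, while Col15a1 and Col18a1 were both lower without overlap. The median turned to 0.15 without CD109-/- replicate 1, to 0.18 without CD109+/+ replicate 1 and to -0.40 without CD109-/- replicate 2.

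Col15a1 and Col18a1 encode the multiplexins, collagens with interrupted rods at the outer face of basement membranes. Their end fragments, restin and endostatin, are known as inhibitors of vessel growth. Col15a1 gave -2.90, -2.11, -3.54 and -3.94, so both CD109-/- arrays lay below both CD109+/+ arrays. The difference was -1.24 ± 0.36, a 2.36-fold lower signal with an unadjusted p of 0.0212 and an adjusted p of 0.579 (limma). It ran from -1.63 to -0.77 over 16 other choices, with adjusted p-values from 0.369 to 1. The unadjusted p passed 0.05 without CD109+/+ replicate 2 (-0.84, limma unadjusted p = 0.0930, adjusted p = 0.943) and without CD109-/- replicate 2 (-1.04, limma unadjusted p = 0.0771, adjusted p = 0.480), so this call rests on those arrays. A second Col15a1 probe, well above background on 1 array of each genotype and not tested, gave -5.63, -4.18, -4.29 and -6.71, where the genotypes overlapped.

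Col18a1 gave 5.41, 4.88, 3.96 and 4.58. Both CD109-/- arrays were below both CD109+/+ arrays, with a difference of -0.87 ± 0.34 (limma, unadjusted p = 0.0541, adjusted p = 0.671), a 1.83-fold lower signal. The difference was lower in size without CD109-/- replicate 1 (-0.57) and larger without CD109-/- replicate 2 (-1.18). The arrays did not rank alike in the multiplexins, since the lowest CD109-/- array was replicate 2 for Col15a1 and replicate 1 for Col18a1. All 6 endothelial markers had higher CD109-/- values, while their sums overlapped between genotypes, at 8.47, 7.12, 8.09 and 11.3. The epithelial sums were 499, 269, 333 and 227 in the same order of arrays. The part of these cells in the multiplexin differences was not tested.

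The upstream window of Col18a1 is printed as that of a gene with values opposite to Col3a1, under the same rules of source, build and capitals. It lies at chr10:77166531-77166780, minus strand.
Col18a1: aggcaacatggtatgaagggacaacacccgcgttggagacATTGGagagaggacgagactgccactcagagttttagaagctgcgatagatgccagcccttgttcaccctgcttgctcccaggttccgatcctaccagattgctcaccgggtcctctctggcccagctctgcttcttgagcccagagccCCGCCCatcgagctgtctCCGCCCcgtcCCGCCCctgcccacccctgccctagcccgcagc
This window held 3 GC box matches and 1 CCAAT box match, all on the opposite strand, and 0 TATA box or SMAD element matches, at 62.0% G+C. No motif of the 4 was present in all of the 3 windows printed. Windows of Col13a1 and Col15a1 were searched too, but their starts are not the outermost annotated ones, so they are not printed. Another gene, Gm12426, also lies in the Col15a1 window. The Col13a1 window held 1 TATA box match and 0 matches to the other motifs, so 0 SMAD elements. The Col15a1 window held 0 matches to any of the 4 motifs.

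Type IV collagen is the sheet itself, and its 6 genes lie head to head in pairs. Their median difference was 0.13, with 4 higher and 2 lower values and 0 of the 6 at an unadjusted p under 0.05. Col4a1 and Col4a2, the chains of every basement membrane, lie on chromosome 8 with annotated starts 21 bases apart. Col4a1 gave 3.29, 3.10, 3.35 and 3.24 and Col4a2 gave 2.59, 2.30, 2.73 and 2.59, differences of 0.10 ± 0.22 and 0.22 ± 0.23. Both chains were highest on CD109-/- replicate 1 and lowest on CD109+/+ replicate 2.

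Col4a3 and Col4a4 encode chains of the kidney and alveolar basement membrane and are neighbours on chromosome 1. Col4a3 gave -1.20, -1.62, -2.00 and -0.87 and Col4a4 gave -1.51, -1.50, -1.90 and -0.79. For each of them CD109-/- replicate 1 was the lowest and CD109-/- replicate 2 the highest array, so the genotypes overlapped. The differences were -0.03 ± 0.45 and 0.15 ± 0.42, and leaving out single arrays moved Col4a3 from -0.59 to 0.54 and Col4a4 from -0.40 to 0.71. On the X chromosome, Col4a5 gave -0.40, -0.64, -0.16 and -0.15, without overlap and with a difference of 0.36 ± 0.22. Its neighbour Col4a6 gave -0.74, -2.05, -1.08 and -2.47, with a difference of -0.38 ± 0.67. In Col4a6 replicate 1 exceeded replicate 2 in each genotype, by more than the genotypes differed. Col7a1, the anchoring fibril collagen that ties epithelium to stroma, gave 0.44, 0.45, -0.03 and 0.88 and differed by -0.02 ± 0.37.

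**Figure D3:**
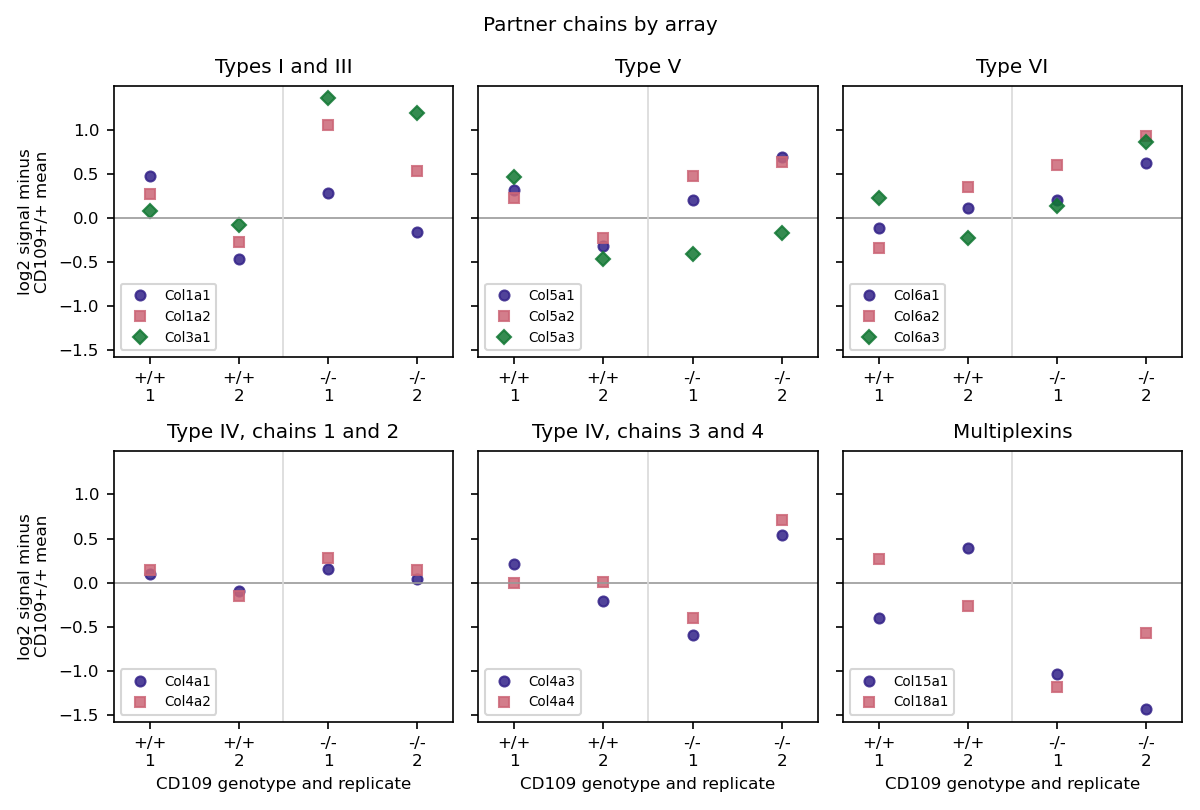
Log2 signal of partner chains on the 4 arrays, each gene relative to its own CD109+/+ mean, for types I and III, type V, type VI, 2 pairs of type IV chains and the multiplexins; the x axis gives genotype and replicate. Col3a1 and Col1a2 lie above Col1a1 on both CD109-/- arrays, the Col4a3 and Col4a4 points move together, and both multiplexins lie below 0 on both CD109-/- arrays.

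Type VI collagen forms beaded microfilaments around cells, built from 1 chain each of Col6a1, Col6a2 and Col6a3. All 3 were tested and all 3 had higher CD109-/- values, with a median of 0.49 and 0 calls at an unadjusted p under 0.05. Col6a1 gave 2.28, 2.51, 2.60 and 3.02, a difference of 0.41 ± 0.26 without overlap. Col6a2, its neighbour on chromosome 10 with 0 protein-coding genes between them, gave -2.53, -1.84, -1.58 and -1.26. That was 0.76 ± 0.33 without overlap (limma, unadjusted p = 0.0718, adjusted p = 0.700), and its other probe gave -4.48, -3.56, -3.56 and -3.11, a difference of 0.69. Col6a3 gave 1.18, 0.73, 1.09 and 1.81, where CD109-/- replicate 1 lay between the CD109+/+ arrays, and differed by 0.49 ± 0.35. A further Col6a3 probe went the other way, at -3.10, -3.67, -4.02 and -3.31 with a difference of -0.28, so the direction of Col6a3 depends on the probe. The fourth beaded filament gene, Col28a1, was well above background on no array.

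Transmembrane collagens sit in the cell membrane with their collagen rod outside. The class median was 0.21 over 3 tested genes, and ran from -0.30 without CD109+/+ replicate 1 to 1.11 without CD109+/+ replicate 2. Col13a1, found at cell adhesions and at the neuromuscular junction, gave -4.96, -4.63, -3.36 and -2.90. Both CD109-/- arrays lay above both CD109+/+ arrays, and all 4 were well above background. The difference was 1.67 ± 0.28, a 3.18-fold higher signal with an unadjusted p of 0.00255 and an adjusted p of 0.504 (limma). The unadjusted p stayed under 0.05 for all 16 other choices, with adjusted p-values from 0.261 to 1. The size did not hold to the same extent, since normexp background correction, which adds a constant and compresses dim signals, gave 0.61. The other filters and probe rules, the trend and the block could not change the Col13a1 difference. A second Col13a1 probe was well above background on no array.

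Col17a1, the hemidesmosome collagen of basal epithelium, gave -4.15, -4.27, -4.98 and -4.15 and differed by -0.36 ± 0.35. Col23a1 gave -4.45, -2.65, -3.65 and -3.03, with the CD109+/+ arrays on either side of the CD109-/- arrays and a difference of 0.21 ± 0.66. Col25a1, best known as a component of amyloid plaques, was not tested, at -5.89, -6.41, -4.76 and -6.69 and well above background on 1 of the 4 arrays.

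Fibril-associated collagens attach to the surface of fibrils and link them to other matrix. The median of the 4 tested genes was 0.44, with 3 higher and 1 lower value, and was 0.05 without CD109-/- replicate 2. Col14a1, a binder of decorin on fibril surfaces, had the largest spread of any tested collagen. It gave -5.23, -3.50, -4.27 and -2.14, so replicate 2 was the higher array in each genotype and the genotypes overlapped. The difference of 1.16 ± 0.93 was within its spread (limma, unadjusted p = 0.274, adjusted p = 0.819) and ran from 0.10 to 2.23 when single arrays were left out. Col16a1 gave 0.07, 0.53, 0.60 and 1.53, a difference of 0.77 ± 0.40 without overlap (limma, unadjusted p = 0.118, adjusted p = 0.736). There CD109-/- replicate 1 exceeded CD109+/+ replicate 2 only narrowly. Col12a1, a collagen of tendon and tumour stroma, gave -1.01, -1.28, -1.41 and -1.74 and was lower without overlap, by -0.43 ± 0.25, and its other tested probe differed by -0.64. Col9a2 gave -3.30, -3.71, -3.49 and -3.30, a difference of 0.11 ± 0.25. Its partner chains Col9a1 and Col9a3 were well above background on no array.

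The short-chain collagens form hexagonal networks in vessel walls, the cornea and growth plates. Type VIII collagen is made from Col8a1 and Col8a2, and the chains went in different directions here. Col8a1 gave 2.69, 2.33, 1.95 and 2.04, lower without overlap by -0.51 ± 0.24 (limma, unadjusted p = 0.0916, adjusted p = 0.721). Col8a2 gave -5.57 and -4.34 on the CD109+/+ arrays, of which 1 was well above background, and -2.95 on CD109-/- replicate 2. Its spot on CD109-/- replicate 1 carried an outlier mark of the scanner software and was left out, so the difference of 2.01 ± 0.63 rests on 1 CD109-/- array (limma, unadjusted p = 0.0403, adjusted p = 0.640). That marked spot read -1.92, and with it the difference was 2.52. The call was lost without CD109+/+ replicate 1 (1.39, limma unadjusted p = 0.0608, adjusted p = 1) and with the authors' processed values (2.02, limma unadjusted p = 0.0509, adjusted p = 0.798). Normexp gave 0.65. The size is therefore poorly fixed, and no value could be had without CD109-/- replicate 2. Col10a1, the collagen of hypertrophic cartilage, gave -0.20, -1.56, -1.23 and -0.83 and differed by -0.15 ± 0.51.

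The male sample could be set aside by comparing CD109-/- replicate 2 with the female CD109+/+ arrays, which is the same fit as sex as a covariate. Col3a1 then differed by 1.18, Col13a1 by 1.90 and Col15a1 by -1.44. Col8a2 had no value on the male array, so its difference of 2.01 could not change and is no check. Col1a2 stood at 0.53, Col27a1 at 0.65 and Col18a1 at -0.57. The lone CD109-/- array is assumed there to vary as the CD109+/+ arrays do. Over all choices tried, the sign changed at least in 1 case for 11 members, Col1a1, Col5a3, Col11a2, Col4a3, Col4a4, Col4a6, Col7a1, Col17a1, Col23a1, Col9a2 and Col10a1. For Col4a3 and Col7a1 these include scaling to the median, which moved the median of all genes by 0.04. The other 19 tested members kept their sign.

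**Figure D4:**
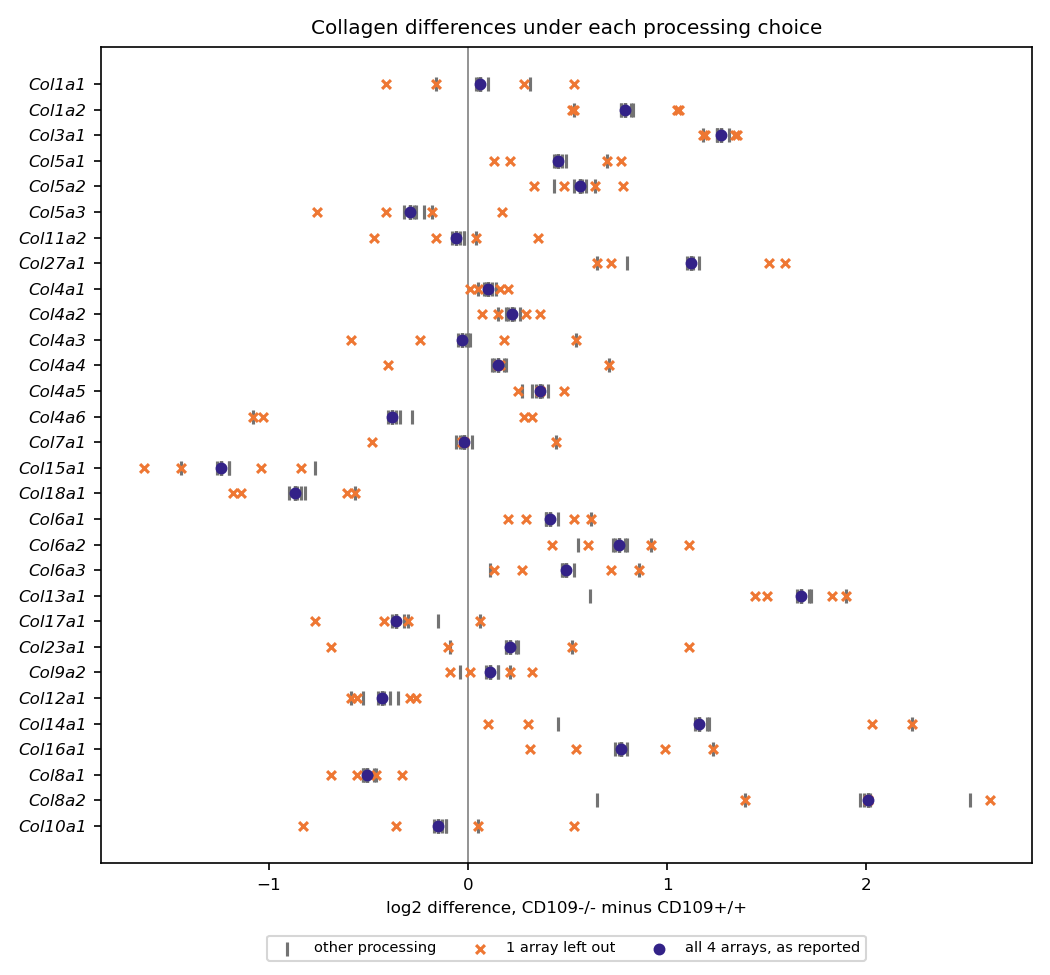
Log2 difference, CD109-/- minus CD109+/+, of each tested collagen gene with all 4 arrays (dark circles), with 1 array left out (orange crosses) and under other processing choices (grey bars). Col3a1 keeps within 1.18 to 1.35, while Col14a1 spans 0.10 to 2.23 and Col1a1 lies on both sides of 0.

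Genes that modify, process, assemble, bind or break down collagen were taken from lists of 71 genes in all, 67 of them tested. Higher CD109-/- values were measured for 48 and lower values for 19, with a median of 0.29. Over all genes 50.3% had a higher value. At an unadjusted p under 0.05, 14 of the 67 were higher and 1 lower, beside 5.00% and 2.41% of all genes, and 0 passed the adjusted threshold. The counts of each list below have the same shares of all genes as their background, with 20.3% of all genes higher without overlap. The counts by list follow, in the order in which these genes act on a chain.

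Of the 20 genes of chain modification and folding, 11 had higher and 9 lower values, with a median of 0.02. The 1 past the unadjusted threshold was Colgalt2, a collagen galactosyltransferase. It gave -6.90, -5.83, -5.36 and -5.05, well above background on the CD109-/- arrays only, where it was at least 1.44-fold higher. It passed the signal filter through those arrays alone, and its limma p (unadjusted p = 0.0452, adjusted p = 0.661) rests on CD109+/+ readings near background. Fkbp10, a chaperone of procollagen, gave 3.13, 3.09, 2.10 and 3.03, a difference of -0.55 ± 0.37 carried by CD109-/- replicate 1. Among 7 genes of secretion, 2 were higher and 5 lower, with a median of -0.13 and 0 calls. Mia3, the TANGO1 receptor that loads procollagen into large carriers, gave 1.38, 1.81, 2.39 and 1.93, while its relative Mia2 gave 3.08, 2.78, 2.37 and 2.53, differences of 0.56 ± 0.29 and -0.48 ± 0.23.

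Of 14 genes of propeptide processing and crosslinking, 11 were tested, 10 had higher and 1 lower values, and 4 were higher at an unadjusted p under 0.05. Pcolce2, an enhancer of the enzyme that trims procollagen, gave -3.35, -2.78, -0.54 and -0.29. Both CD109-/- arrays stood well above both CD109+/+ arrays, by 2.65 ± 0.29 (limma, unadjusted p = 0.000437, adjusted p = 0.327). Lox, the enzyme that starts crosslinks between chains, gave -0.54, -0.74, 0.71 and 0.16, a difference of 1.08 ± 0.28 (adjusted p = 0.543). Its relative Loxl1 gave -1.07, -0.88, -0.30 and -0.04, 0.80 ± 0.23 higher. Adamts2, which removes the amino-terminal propeptide, gave 0.26, -0.08, 0.68 and 0.96, 0.73 ± 0.25 higher. The proteinase that Pcolce2 assists, Bmp1, went the other way, at 4.42, 4.38, 3.44 and 4.33 (-0.51 ± 0.36), with CD109-/- replicate 2 close to the CD109+/+ arrays.

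All 10 genes of fibril assembly partners had higher values, 7 of them without overlap, with a median of 0.73. Most of these are small leucine-rich proteoglycans, which bind fibrils and set their spacing. Ogn (osteoglycin) gave -3.46, -2.40, -0.06 and 0.46, a difference of 3.13 ± 0.44 (limma, unadjusted p = 0.00131, adjusted p = 0.450). Lum (lumican) gave -4.10, -3.89, -2.21 and -2.36, 1.71 ± 0.22 higher (adjusted p = 0.407), and Podn (podocan) gave -2.50, -1.77, -0.51 and -0.12, 1.82 ± 0.34 higher. Bgn (biglycan) gave -0.44, -0.04, 0.55 and 0.41, 0.72 ± 0.25 higher. Dcn (decorin), the best known of this family, gave 2.73, 3.52, 3.52 and 3.53, where only CD109+/+ replicate 1 stood apart, and differed by 0.40 ± 0.33. Lum and Dcn also stand in the fibroblast marker list above, so these lists are not separate evidence.

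Of 11 collagen receptors, 8 had higher and 3 lower values, with a median of 0.35. Ddr2, the discoidin receptor of fibrillar collagen on mesenchymal cells, gave -1.01, -0.50, 0.00 and 0.42, 0.97 ± 0.30 higher. Lair1, an inhibitory collagen receptor of leukocytes, gave -1.42, -1.31, -0.46 and -0.58, 0.84 ± 0.21 higher. The 1 gene lower at an unadjusted p under 0.05 was Itga11, the integrin chain that binds type I collagen on fibroblasts. It gave -0.50, -2.01, -3.08 and -3.77, with both CD109-/- arrays below and a difference of -2.17 ± 0.59 (limma, unadjusted p = 0.0167, adjusted p = 0.561). The 11 fibroblast markers ran from 0.01 (Pdgfrb) to 3.54 (Dpt), with a median of 1.53, so Itga11 differed from them in sign. The reason was not tested.

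Of 9 genes of collagen breakdown, 8 were tested, 7 with higher and 1 with a lower value and a median of 0.73. Mmp2, a gelatinase of stromal cells, gave -2.15, -2.57, -1.12 and -1.34, 1.13 ± 0.26 higher. Mmp8, the collagenase of neutrophils, gave -3.20, -2.67, -1.38 and -1.72, 1.39 ± 0.29 higher. Fap, a protease of activated fibroblasts, gave -2.50, -2.46, -1.97 and -1.32, 0.83 ± 0.30 higher. The membrane collagenase Mmp14, which activates Mmp2, gave 0.31, -0.88, -0.62 and -1.56, a difference of -0.80 ± 0.54 within its spread. Collagen genes outside the 35 were 9, of which 4 were tested. Among them Col2a1, the cartilage fibril collagen, gave -1.36, -1.43, -0.32 and -0.44, a difference of 1.02 ± 0.21 without overlap (limma, unadjusted p = 0.00604, adjusted p = 0.507).

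**Figure D5:**
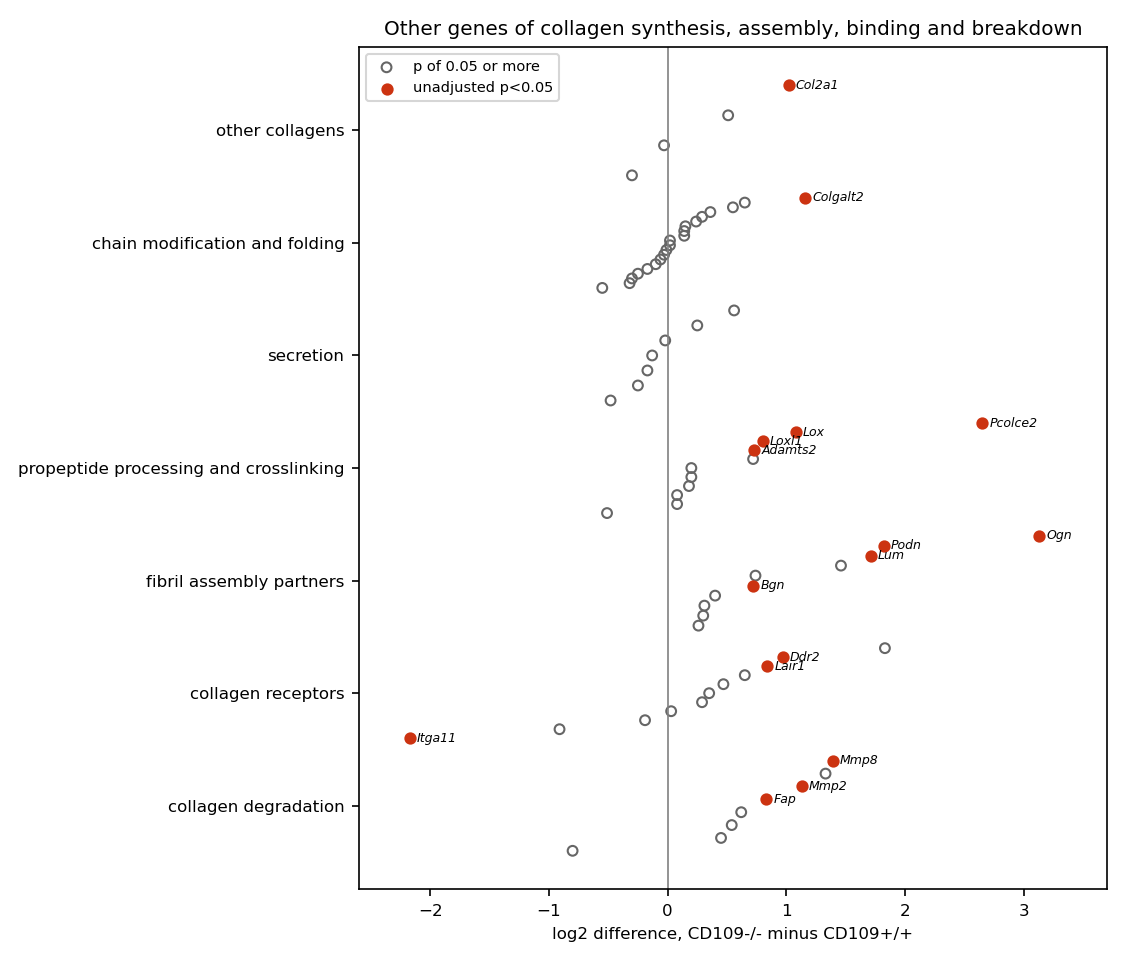
Log2 difference, CD109-/- minus CD109+/+, of each tested gene of collagen synthesis, processing, assembly, binding and breakdown, by list; filled red points have an unadjusted limma p under 0.05 and are named. The red points lie mostly right of 0 in the lists acting outside the cell, with Ogn (3.13) and Pcolce2 (2.65) farthest and Itga11 (-2.17) alone on the left.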

How the data were processed

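Per the labels' protocols, Cy3-labelled cRNA was made from 100 ng of total RNA. The scanner files deposited by the authors hold linear intensity values, background-subtracted and not scaled between arrays, from Agilent Feature Extraction 12.1.0.3 and a design on mm9, per the file headers. All 4 arrays lay on 1 slide. The authors' series table, used as an alternative, also holds intensity: each column was the processed signal times 1 constant (1.19, 1.21, 1.04 and 1.08; column medians 58.8, 76.1, 59.5 and 69.2). How those constants were set stays unknown.

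Control spots and 58 to 73 outlier-marked spots per array were dropped, and spots sharing a probe were averaged. The log2 processed signal was centred on the 75th percentile of its array. A probe was tested when well above background on both arrays of a genotype (35777 of 56605). Probes were named by accession through RefSeq (GRCm38.p6): 34566 matched and 22039 did not. A gene was its tested probe with the highest mean, probes measured on all 4 arrays first. The members had 54 probes, 37 of them tested; 18 members had 1 probe. An "at least" fold puts a dim array no lower than the dimmest probe that was well above background on it, and has no p-value of its own.

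The genotype difference was fitted by limma 3.58.1 (lmFit, eBayes; R 4.3.3) over all 16445 genes, two-sided and without covariates, with 2 residual and 2.54 prior degrees of freedom and Benjamini-Hochberg adjustment over all genes. Tables were made in Python 3.11.15. The procedure was tested on simulated data. The number of arrays limits the precision.

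Named were all 35 members, in full where the unadjusted p was under 0.05 or the difference at least 1, with partner chains, and Cd109. From the pathway lists, genes with an unadjusted p under 0.05 were named, with some of the next 3 per list by size of moderated t. Crtap, P3h2, Pxdn, Fmod, Tnxb and Mmp15, all with higher CD109-/- values, ranked above genes named in their lists and are not described above. A further few members were given by array for completeness. Members and lists were chosen with earlier results of these data known. Alternatives were normexp (offset 50), quantile and median scaling, the authors' values, other filters and probe rules, a mean-variance trend, a replicate block, sex as a covariate and leaving out each array. They are not independent, since sex as a covariate is the same fit as leaving out CD109-/- replicate 1. For Col3a1 and Col13a1 the other filters and probe rules, the trend and the block could not change the difference.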

Additional observations from a re-analysis of the deposited data

How the results depend on the processing

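The count of collagens past the adjusted threshold was 0 under all 16 alternatives and at a threshold of 0.1. The count lower at an unadjusted p under 0.05, 1 with the settings reported, was 3 with normexp, 2 with the authors' processed values, 2 with the filter asking for signal on all 4 arrays, 2 with a mean-variance trend, and 0 to 2 when single arrays were left out. The count higher, 3 as reported, was 8 with the replicate number as a block. The arrays of 1 number correlated at 0.363 in their deviations from the genotype means, and with 2 pairs this does not show that the numbers pair the samples. The block also raised the count over all genes to 1900 from 1219; without CD109+/+ replicate 1 that count was 553 and without CD109-/- replicate 2 it was 1928. The basement membrane median (-0.02) was 0.15 with sex as a covariate and -0.40 to 0.18 over arrays left out; the transmembrane median (0.21) was -0.30 to 1.11 and the fibril-associated median (0.44) was 0.05 to 0.72. The causes were not tested. Of 478 member values under alternatives, 451 kept their side of the unadjusted threshold, 424 of these with the sign kept and 27 with it turned; 4 lost and 23 gained a p under 0.05; 19 members kept their sign throughout and 11 did not. Keeping outlier-marked spots, and taking the brightest probe even with a spot left out, were chosen after seeing the data. Normexp used median spot signals in place of means. Signal over background limits Col8a2, Col13a1 and the 5 members not tested.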
